A study of Mus musculus with 10 samples.

Results

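The collagen chain genes are the genes that encode the alpha chains of the collagens. They were taken by name, as all symbols made of Col, a type number, a and a chain number with nothing after, which gave 44 of the 24063 gene symbols in the deposited tables. Of these, 11 encode fibrillar chains, 8 encode chains of basement membranes and 25 encode chains of other types. All 44 had at least 1 read in some library, and 41 had reads in every library. For 8 of them the tables list several transcripts, and the transcript with the largest count over all libraries was kept.

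The libraries are from quadriceps muscle of wild-type C57BL mice aged 17 to 20 months, 5 that drank water from the animal facility (Control) and 5 whose water carried the supplement named 1C-MIM for 1 to 3 months. The sources used here do not give the contents of 1C-MIM. All mice had a muscle injury in the TA, and the RNA came from quadriceps that was not injured. The interval between injury and collection is not stated in those sources. Each library carries an animal number of its own in the names of the tables, and n is the number of animals. Cages held at most 5 mice, and the sample labels used here do not say which mice shared a cage. The tests treat animals as independent, and an effect of cage cannot be told apart from that of the supplement.

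Collagens are the main structural proteins of connective tissue. Each molecule is a triple helix of 3 alpha chains, which can be copies of a single gene product or products of different genes. In skeletal muscle, types I, III and V form the fibrils of the endomysium, perimysium and tendon. Type IV builds the sheet-like network of the basement membrane around each fibre and capillary, and type VI forms beaded filaments at its outer face. Most of these chains are made by fibroblasts and by the progenitors of fibrous and fatty tissue in muscle, while type IV also comes from endothelial cells and from the fibres.

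After 1 transcript was kept per symbol, the libraries held 28521254 to 31771296 counts, of which collagen chains took 0.122 to 0.198% in Control and 0.0805 to 0.125% in 1C-MIM. Levels are given as counts per 1000000 (CPM) after scaling for library composition. The 8 muscle fibre markers, among them Ckm, Acta1 and Myh4, summed to 138000 to 156100 CPM in Control and 155200 to 177300 CPM in 1C-MIM. Of 13880 genes that passed the filter on low counts, 21.6% were called, 11.8% lower and 9.78% higher in 1C-MIM (edgeR quasi-likelihood test, Benjamini-Hochberg adjusted p under 0.05). The ranges of the groups did not overlap for 7.98% of genes that were lower and 6.60% that were higher. In bulk muscle, fewer cells of a type and less RNA per cell cannot be told apart.

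The promoter windows of 4 chains are shown here because these chains mark the contrast described in the following paragraphs. Col3a1 and Col1a2 are the fibrillar chains with the highest levels, and both were lower in 1C-MIM. Col4a1 and Col4a2 encode the main basement membrane chains, lie head to head and did not pass the test. The results for Col1a2, Col4a1 and Col4a2 changed under some alternative fits, given with each chain below. Each window runs from 250 bases before to 50 bases after the gene's start, 5′ to 3′ on the gene's strand (RefSeq, GRCm38.p6). Capitals mark CCAAT or its reverse ATTGG, and TATAAA or its reverse TTTATA.
Col3a1 (chr1:45311288-45311587, plus strand): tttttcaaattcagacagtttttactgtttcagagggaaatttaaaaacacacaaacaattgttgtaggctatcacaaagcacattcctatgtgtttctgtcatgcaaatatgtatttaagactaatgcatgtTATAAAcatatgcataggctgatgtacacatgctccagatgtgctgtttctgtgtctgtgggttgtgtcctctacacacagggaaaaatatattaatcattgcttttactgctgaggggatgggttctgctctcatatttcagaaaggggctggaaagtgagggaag
Col1a2 (chr6:4505368-4505667, plus strand): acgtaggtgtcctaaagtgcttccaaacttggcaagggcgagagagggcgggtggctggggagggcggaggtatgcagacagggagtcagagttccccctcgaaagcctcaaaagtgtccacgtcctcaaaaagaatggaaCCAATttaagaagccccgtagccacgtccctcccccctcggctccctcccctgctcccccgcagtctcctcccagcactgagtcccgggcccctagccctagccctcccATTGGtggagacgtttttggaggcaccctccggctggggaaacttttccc
Col4a1 (chr8:11312777-11313076, minus strand): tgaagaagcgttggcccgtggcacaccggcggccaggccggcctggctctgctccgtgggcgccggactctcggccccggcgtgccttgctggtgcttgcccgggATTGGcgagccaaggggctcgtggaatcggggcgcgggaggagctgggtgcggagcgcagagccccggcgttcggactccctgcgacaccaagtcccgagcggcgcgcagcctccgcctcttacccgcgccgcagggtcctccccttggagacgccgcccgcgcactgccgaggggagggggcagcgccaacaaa
Col4a2 (chr8:11312555-11312854, plus strand): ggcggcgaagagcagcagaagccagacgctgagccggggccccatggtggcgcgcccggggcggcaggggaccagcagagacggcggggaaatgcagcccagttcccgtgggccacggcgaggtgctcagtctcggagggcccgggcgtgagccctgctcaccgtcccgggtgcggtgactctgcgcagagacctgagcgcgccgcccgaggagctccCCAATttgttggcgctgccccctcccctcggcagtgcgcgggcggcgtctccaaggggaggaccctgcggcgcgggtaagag
The Col4a1 and Col4a2 windows share 78 bases, read from opposite strands. Reads from a stretch that both transcripts share cannot be assigned without strand. The Col3a1 window held TATAAA and had a GC content of 37.7%, against 61.0% for Col1a2, 74.0% for Col4a1 and 73.7% for Col4a2.

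RefSeq gave windows for 35 of the 44 chains, 38 windows in all. CCAAT, on either strand, was found in 13 of the 38 windows and in 37.4% of all 32851 windows of the same length. The GC box GGGCGG, or its reverse CCGCCC, was in 23 of 38 windows, against 35.7% of all. TATAAA was in 5 of 38, against 13.6% of all. The AP-1 letters TGANTCA, which read the same on both strands, were in 1 of 38, that of Col6a1, against 7.81% of all. Motifs were searched independently, so neighbouring matches may share letters. A match is a description of the letters in the window.

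Of the 44 chains, 39 passed the filter on low counts. In 1C-MIM muscle 10 of the 39 were lower, 5 were higher and 24 did not pass the test, against the background shares of 11.8% and 9.78%. The median log2 fold change was -0.21, against 0.00 over all genes tested. The lower chains were Col1a1, Col1a2, Col3a1, Col5a1, Col5a2, Col4a5, Col6a1, Col6a2, Col6a3 and Col26a1. The higher ones were Col11a2, Col4a3, Col9a1, Col20a1 and Col28a1. Among the 39 tested chains, called or not, the groups did not overlap in 6 that were lower in 1C-MIM and 2 that were higher, against the shares of 7.98% and 6.60% given earlier. Of the 6, Col6a5 did not pass the test.

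The balance of the calls depended on the scaling. With library totals alone, 15 chains were lower and 3 higher. Under that scaling 25.2% of all genes were called, 20.9% lower and 4.37% higher, and the median of all genes stood at -0.07. With the trend of each library with transcript length removed, 17 were lower and 2 higher, when 16.3% of all genes were called, 9.31% lower and 6.95% higher. Without Control 4 or without 1C-MIM 2 there were 2 higher chains, and without 1C-MIM 3 or without 1C-MIM 4 there were 3. The library names give 2 series of animal numbers (28x and 38x), with 3 and 2 animals per group. Within the series the log2 ratio of the group means of Col3a1 was -1.65 (28x) and -1.41 (38x). All 15 called chains had the same direction in both series, which is a description, since the calls came from these same libraries.

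**Figure D1:**
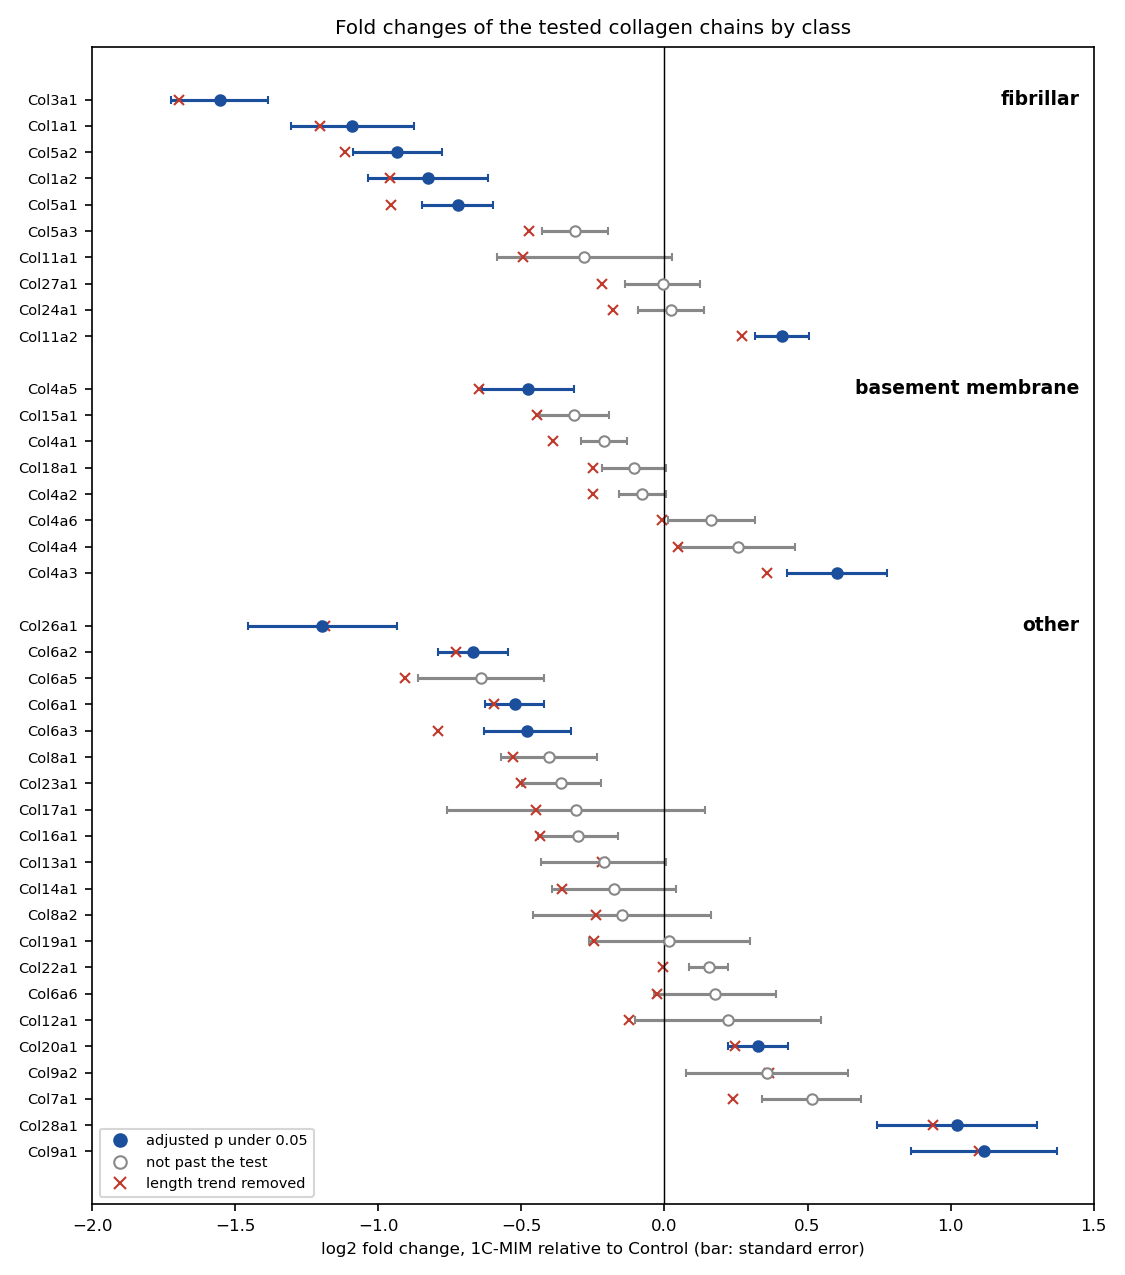
Log2 fold change of the 39 tested collagen chains, 1C-MIM relative to Control (horizontal axis, bars are the standard error), by class. Filled points passed an adjusted p under 0.05, open points did not, and crosses show the value with the length trend removed. The 5 lowest fibrillar chains lie between -1.56 and -0.72, and the 8 basement membrane chains between -0.48 and 0.60.

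The fibrillar class carried the largest decreases of abundant chains. Of its 10 tested members, 5 were lower, 1 was higher and 4 did not pass the test, with a median log2 fold change of -0.52. Over all genes 11.8% were lower and 9.78% higher. Together the 11 chains summed to 602 to 1051 CPM in Control and 339.5 to 556 CPM in 1C-MIM, with no overlap between the groups.

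Col3a1 encodes the only chain of type III collagen, which forms the fine fibres around single muscle fibres and in vessel walls. Its values were 392.6, 205, 392.5, 294 and 296 CPM in Control 1 to 5 and 93.0, 132, 90.8, 103 and 119 CPM in 1C-MIM 1 to 5. All 1C-MIM libraries lay below all Controls, and Control 2 was the lowest Control. The log2 change was -1.56 (SE 0.17, edgeR adjusted p = 0.000272). On the per-length scale, Col3a1 was the highest collagen chain in Control, at 56.8 CPM per kilobase, and in 1C-MIM Col1a2 and Col4a1 stood above it, with Col3a1 at 19.35 CPM per kilobase. Its neighbour on chromosome 1, with no other protein-coding gene between them, is Col5a2.

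Type I collagen, the main fibril of tendon and perimysium, is a trimer of the Col1a1 and Col1a2 chains. For Col1a1 the Control libraries gave 153, 96.4, 168, 119 and 144 CPM (Control 1 to 5). In 1C-MIM the values were 45.0, 93.7, 46.9, 58.7 and 74.6 CPM (1C-MIM 1 to 5). The groups did not overlap, but only a narrow gap parted Control 2 and 1C-MIM 2. Col1a1 fell by 1.09 on the log2 scale (SE 0.21, edgeR adjusted p = 0.00689). Without Control 1 and Control 5 together its adjusted p was 0.0595 (log2 change -1.002). With replicate number as a block it was 0.0502.

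For Col1a2 the Control values were 247, 180.4, 308, 229.7 and 261 CPM, and the 1C-MIM values were 103, 206, 96.4, 125 and 162 CPM (1 to 5 in each group). The ranges overlapped, since 1C-MIM 2 lay above Control 2. Col1a2 fell from 245 ± 46.5 to 138 ± 45.5 CPM (SD, n = 5), by 0.83 on the log2 scale (SE 0.21, edgeR adjusted p = 0.0197). Its adjusted p was 0.0626 without Control 5, 0.055 without 1C-MIM 4, 0.111 without Control 1 and Control 5, and 0.0818 with the replicate block.

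Type V collagen starts the assembly of type I fibrils and limits their width. Its main chains are encoded by Col5a1 and Col5a2. Col5a1 stood at 53.8, 36.8, 60.9, 43.4 and 45.0 CPM in Control 1 to 5 and at 25.01, 34.1, 27.8, 28.1 and 30.5 CPM in 1C-MIM 1 to 5. Col5a2 stood at 52.4, 29.9, 51.8, 38.7 and 39.5 CPM in Control and at 19.6, 27.9, 18.4, 23.05 and 22.2 CPM in 1C-MIM, in the same order. Neither chain's groups overlapped. The log2 fold changes were -0.72 (SE 0.125) for Col5a1 and -0.93 (SE 0.155) for Col5a2, with edgeR adjusted p of 0.00271 and 0.00257.

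The remaining type V gene, Col5a3, encodes a chain of a minor form of the molecule. It went from 37.5 ± 7.575 to 30.2 ± 0.732 CPM (SD, n = 5) with a log2 fold change of -0.31, which did not pass the test (edgeR adjusted p = 0.0668). It passed without Control 2 (-0.41, adjusted p = 0.00605), under library totals alone (-0.39, adjusted p = 0.0291), under the replicate block (-0.29, adjusted p = 0.0489) and after removal of the length trend (-0.47, adjusted p = 0.0404). The 1C-MIM libraries lay within 29.4 to 31.3 CPM, while the Controls spread from 27.1 to 46.0 CPM.

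**Figure D2:**
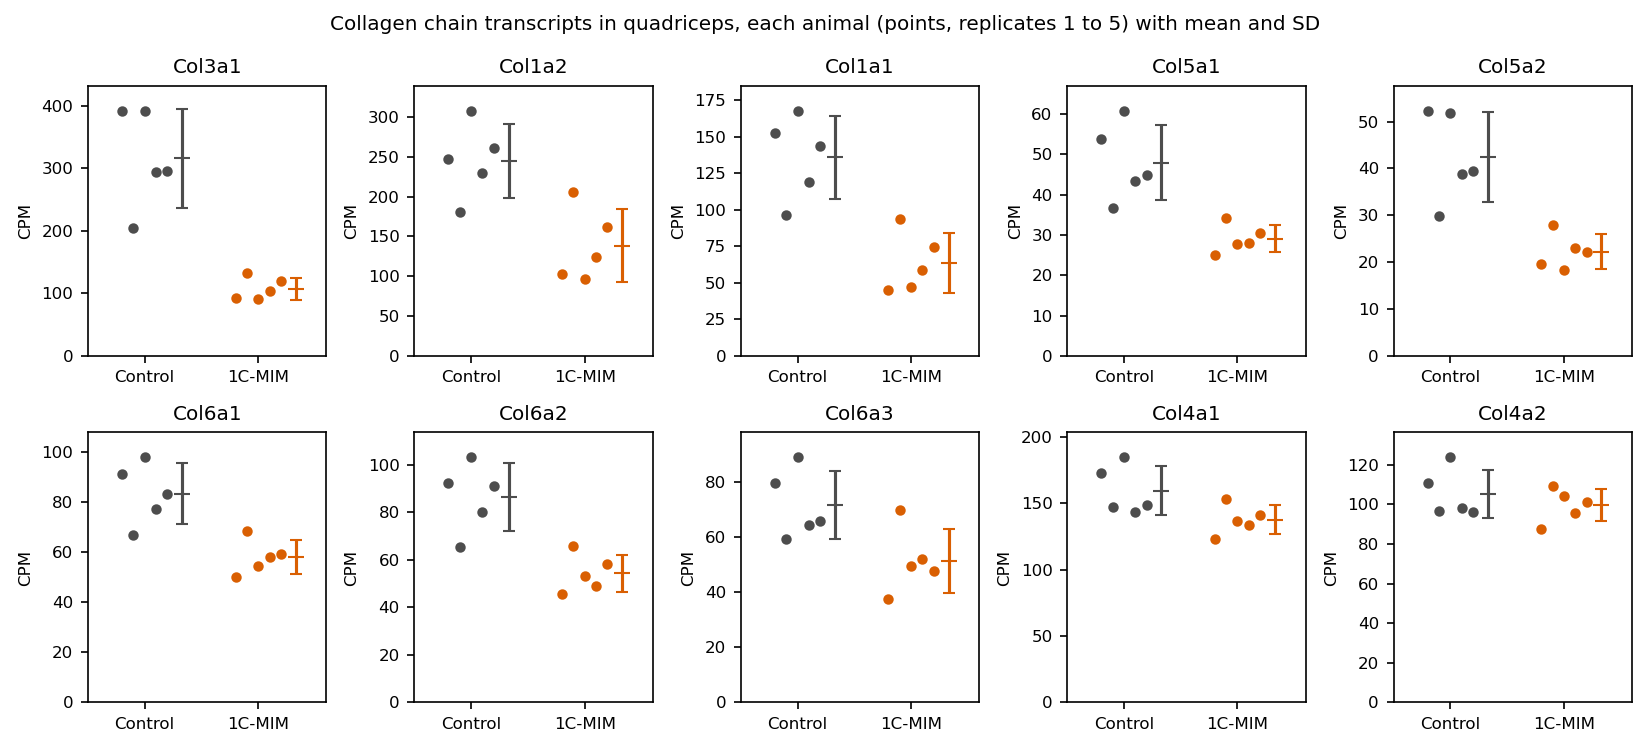
CPM (vertical axes, from 0) of 10 chains in each animal, with the mean and SD beside the points of each group. For Col3a1 all 1C-MIM animals (90.8 to 132 CPM) lie below all Controls (205 to 392.6 CPM). For Col4a2 the groups overlap (87.8 to 109 CPM in 1C-MIM and 96.4 to 124 CPM in Control).

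Among the remaining fibrillar chains the exception in direction was Col11a2, a chain of the type XI collagen of cartilage fibrils. It had 7.91, 8.32, 8.25, 8.14 and 9.53 CPM in Control 1 to 5 and 11.4, 8.998, 11.7, 11.04 and 12.8 CPM in 1C-MIM 1 to 5. Only Control 5 and 1C-MIM 2 overlapped. Col11a2 rose by 0.41 on the log2 scale (SE 0.095, edgeR adjusted p = 0.0105), but its adjusted p was 0.14 with the length trend removed (log2 fold change 0.27). Its partner chain Col11a1 was low, at 1.58 ± 0.286 CPM in Control and 1.30 ± 0.755 CPM in 1C-MIM (SD, n = 5), and did not pass the test.

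Col24a1 and Col27a1 encode fibrillar chains with short, interrupted helices. Col24a1 had 13.5 ± 0.804 CPM in Control and 13.7 ± 2.775 CPM in 1C-MIM (log2 fold change 0.02, SE 0.11). Col27a1 had 3.58 ± 0.583 and 3.57 ± 0.426 CPM (SD, n = 5; log2 fold change -0.01, SE 0.13). Neither passed the test. The cartilage chain Col2a1 had 4 to 11 counts in every library and was too low to be tested.

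Basement membrane chains as a class differed less between the groups. Of 8 chains, all tested, 1 was lower, 1 was higher and 6 did not pass, near the background shares of 11.8% lower and 9.78% higher. Their median log2 fold change was -0.09. The 8 chains summed to 301 to 386 CPM in Control and 266 to 334 CPM in 1C-MIM. With the length trend removed 4 were lower and 0 higher, when 9.31% of all genes were lower, and the median was -0.25.

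The main type IV network is a trimer of the Col4a1 and Col4a2 chains. Col4a1 gave 173, 148, 185, 143 and 149 CPM in Control 1 to 5 and 123, 153, 137, 134 and 141 CPM in 1C-MIM 1 to 5. Col4a2 gave 111, 96.8, 124, 97.9 and 96.4 CPM in Control and 87.8, 109, 104, 95.6 and 101 CPM in 1C-MIM. Both pairs of ranges overlapped. The log2 fold change was -0.21 (SE 0.08) for Col4a1 and -0.08 (SE 0.08) for Col4a2, with edgeR adjusted p of 0.0748 and 0.512. Col4a1 passed with library totals alone (-0.29, adjusted p = 0.0379), and both passed with the length trend removed (-0.39 and -0.25, adjusted p = 0.0024 and 0.0242).

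The chains Col4a3, Col4a4 and Col4a5 form the type IV network known from the kidney glomerulus, and Col4a6 pairs with Col4a5 in smooth muscle and other basement membranes. Col4a5 had 8.18, 6.36, 8.62, 6.99 and 5.18 CPM in Control 1 to 5 and 4.42, 7.07, 4.42, 4.84 and 4.66 CPM in 1C-MIM 1 to 5. Its groups overlapped through 1C-MIM 2, which lay above the lowest Controls. Col4a5 fell by 0.48 on the log2 scale (SE 0.16, edgeR adjusted p = 0.0481). Leaving out Control 1, Control 3, Control 4, 1C-MIM 1, 1C-MIM 3, 1C-MIM 4 or 1C-MIM 5 raised its adjusted p to between 0.0812 and 0.11, and with no filter it was 0.0523 and with the replicate block 0.0513.

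Col4a3 was low, with 40 to 62 counts per Control library and 54 to 93 per 1C-MIM library. Its levels were 1.81, 1.83, 1.915, 1.35 and 1.35 CPM in Control 1 to 5 and 2.21, 3.19, 2.59, 2.77 and 1.79 CPM in 1C-MIM 1 to 5. Only 1C-MIM 5 lay within the Control range. Col4a3 rose by 0.60 (SE 0.17, edgeR adjusted p = 0.0263). Its adjusted p was 0.0653 without Control 4, 0.0566 without Control 5, 0.0687 without 1C-MIM 2, 0.055 without 1C-MIM 3 and 0.0675 without 1C-MIM 4. It was 0.0785 without Control 1 and Control 5, 0.0501 with library totals alone and 0.0877 with the length trend removed.

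Col4a4, its neighbour on chromosome 1, had 2.44 ± 0.637 and 2.93 ± 0.665 CPM (SD, n = 5), and Col4a6 had 1.72 ± 0.289 and 1.93 ± 0.258 CPM in Control and 1C-MIM. Neither passed the test. The multiplexins Col15a1 and Col18a1 link the basement membrane to the fibrils outside it, and Col18a1 also yields the fragment endostatin. Col15a1 went from 35.6 ± 7.53 to 28.6 ± 2.38 CPM and did not pass (log2 change -0.315, SE 0.12, edgeR adjusted p = 0.0775), with Control 1 the highest library at 47.3 CPM. It passed without Control 2 (-0.39, adjusted p = 0.0229), under library totals alone (-0.39, adjusted p = 0.046) and after removal of the length trend (-0.445, adjusted p = 0.0196). Col18a1 had 19.9 ± 2.6 and 18.5 ± 2.985 CPM (SD, n = 5; log2 fold change -0.11, SE 0.11).

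Type VI chains belong to the other collagens. Col6a1, Col6a2 and Col6a3 together make the beaded filament that ties the fibre's basement membrane to the matrix, and mutations in any of these genes cause inherited muscle disease in people. Col6a1 had 91.3, 66.9, 97.9, 77.1 and 83.1 CPM in Control 1 to 5 and 50.1, 68.3, 54.2, 57.9 and 59.2 CPM in 1C-MIM 1 to 5. Col6a2 had 92.2, 65.3, 103, 80.2 and 90.85 CPM in Control and 45.8, 65.6, 53.2, 48.9 and 58.2 CPM in 1C-MIM. For both chains the only overlap was between Control 2 and 1C-MIM 2. Col6a1 fell by 0.52 (SE 0.10) and Col6a2 by 0.67 (SE 0.12) on the log2 scale, with edgeR adjusted p of 0.00496 and 0.00342. These adjacent genes on chromosome 10 kept their calls in all 23 alternative fits. With a fold change of at least 1.5 required as well, Col6a1 was not called.

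Col6a3, the longest type VI chain, had 79.7, 59.6, 89.25, 64.7 and 65.8 CPM in Control 1 to 5 and 37.8, 69.9, 49.6, 52.2 and 48.0 CPM in 1C-MIM 1 to 5. Only 1C-MIM 2 lay within the Control range. Col6a3 fell by 0.48 (SE 0.15, edgeR adjusted p = 0.0419). Its adjusted p was 0.053 to 0.089 without any of Control 1, Control 3, Control 4, Control 5, 1C-MIM 1, 1C-MIM 3, 1C-MIM 4 or 1C-MIM 5. It was 0.146 without Control 1 and Control 5, 0.106 with the replicate block and 0.0716 with no filter, and 0.00196 with the length trend removed (log2 fold change -0.79).

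Col6a4, Col6a5 and Col6a6 encode chains related to Col6a3 and lie side by side on chromosome 9. Col6a5 had 1.14 to 1.78 CPM in Control and 0.484 to 1.13 CPM in 1C-MIM, with no overlap, and just missed the threshold (log2 change -0.64, SE 0.22, edgeR adjusted p = 0.0515). Col6a5 passed without Control 2 (-0.72, adjusted p = 0.039), with library totals alone, with upper-quartile factors, with DESeq2, with the filter of 1 CPM and with the length trend removed. Col6a6 had 6.78 ± 1.52 and 7.66 ± 2.39 CPM (SD, n = 5) and did not pass. Col6a4 had 0 to 4 counts per library and was not tested.

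Fibril-associated collagens with interrupted helices (FACIT) sit on the surface of fibrils. Of 9 such chains 8 were tested, and 2 were higher and 6 did not pass, against 9.78% higher over all genes. With the length trend removed 1 was higher, when 6.95% of all genes were. The median log2 fold change of the 8 was 0.19, and -0.06 with that trend removed. Col12a1 and Col14a1, which coat type I fibrils, had 9.59 ± 1.51 and 10.1 ± 2.19 CPM in Control, and 11.2 ± 6.66 and 8.90 ± 3.0 CPM in 1C-MIM (SD, n = 5). For Col12a1 the library 1C-MIM 2 stood at 22.5 CPM and the other 1C-MIM libraries at 5.68 to 10.9 CPM. Col22a1, a collagen of the myotendinous junction, had 22.8 to 25.9 CPM in Control and 25.3 to 30.95 CPM in 1C-MIM (log2 change 0.155, SE 0.07, edgeR adjusted p = 0.114). Col16a1 went from 8.25 ± 1.43 to 6.69 ± 1.18 CPM, and Col19a1 stood at 1.74 ± 0.784 and 1.76 ± 0.52 CPM. Neither passed the test.

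Of the 2 FACIT chains that were higher, Col9a1 had a mean under 1 CPM. Col20a1 had means of 5.19 CPM in Control and 6.52 CPM in 1C-MIM. Col9a1, a cartilage chain, had 0.342, 0.457, 0.278, 0.224 and 0.370 CPM in Control 1 to 5 (7 to 14 counts). In 1C-MIM 1 to 5 it had 0.760, 0.618, 1.03, 0.567 and 0.661 CPM (17 to 31 counts). The groups did not overlap, and Col9a1 rose by 1.12 (SE 0.255, edgeR adjusted p = 0.00979). It kept this call in every alternative that tested it. Its partners Col9a2 (0.293 and 0.378 CPM in Control and 1C-MIM) and Col9a3 (2 to 10 counts per library) had low levels as well. Col9a2 did not pass, and Col9a3 was too low to be tested. Of 6 cartilage and bone markers, Matn1 and Ibsp had 0 counts in all libraries, Acan and Bglap were too low to be tested, Runx2 did not pass and Sox9 fell by 0.74. These markers summed to 3.29 to 4.04 CPM in Control and 2.14 to 2.885 CPM in 1C-MIM.

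Col20a1 had 4.62, 4.63, 6.18, 4.905 and 5.62 CPM in Control 1 to 5 and 6.18, 6.11, 7.47, 6.44 and 6.38 CPM in 1C-MIM 1 to 5. Control 3 lay within the 1C-MIM range. Col20a1 rose by 0.33 (SE 0.105, edgeR adjusted p = 0.0403). Its adjusted p was 0.0526 to 0.101 without any of Control 1, Control 2, Control 4, 1C-MIM 2, 1C-MIM 3, 1C-MIM 4 or 1C-MIM 5, and 0.0954 without Control 1 and Control 5. It was 0.103 with library totals alone, 0.131 with the length trend removed and 0.0524 with the animal number series as a block.

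Among the rest, Col26a1 and Col28a1 moved in opposite directions at low levels. Col26a1 had 0.993, 0.489, 0.865, 0.801 and 0.741 CPM in Control 1 to 5 and 0.415, 0.240, 0.266, 0.300 and 0.463 CPM in 1C-MIM 1 to 5. It fell by 1.20 (SE 0.26, edgeR adjusted p = 0.0077) with no overlap, from 15 to 29 counts per library to 7 to 14. Col28a1, a collagen found around Schwann cells of peripheral nerve, had 0.582, 0.457, 0.649, 0.321 and 0.303 CPM in Control and 0.691, 1.51, 0.797, 0.834 and 0.893 CPM in 1C-MIM. It rose by 1.02 (SE 0.28, edgeR adjusted p = 0.0214) with no overlap. Without 1C-MIM 2, the highest library, its log2 fold change was 0.79 (adjusted p = 0.0533). Its adjusted p was 0.0536 without Control 4 and 0.0614 without Control 1 and Control 5. Of 6 Schwann cell markers 1 was higher and 5 did not pass, against 9.78% higher over all genes. The markers summed to 79.8 to 99.4 CPM in Control and 91.4 to 110 CPM in 1C-MIM. The part of these cells in the Col28a1 result was not tested.

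Col7a1, the chain of the anchoring fibrils of skin, had 19.7, 29.8, 43.4, 31.9 and 41.4 CPM in Control 1 to 5 and 42.5, 47.2, 54.9, 45.6 and 47.3 CPM in 1C-MIM 1 to 5. Control 3 alone lay within the 1C-MIM range, and the log2 fold change of 0.515 (SE 0.17) just missed the threshold (edgeR adjusted p = 0.0529). It passed without Control 1 (0.38, adjusted p = 0.0344), without Control 3 (0.63, adjusted p = 0.0277) and with the replicate block (0.56, adjusted p = 0.0116). It also passed with DESeq2 (adjusted p = 0.0163), limma-voom (adjusted p = 0.0318) and edgeR without robust dispersion (adjusted p = 0.0406). The same held with the filter of 1 CPM (edgeR adjusted p = 0.0491) and without Control 1 and Control 5 (edgeR adjusted p = 0.032). Removal of the length trend left 0.24 (adjusted p = 0.516). The short-chain network chains Col8a1 and Col8a2, known from vessel walls and the cornea, did not pass (log2 changes -0.405 and -0.15). Col8a1 passed without 1C-MIM 2 (-0.57, adjusted p = 0.0189) and after removal of the length trend. Neither did the transmembrane collagens Col13a1 of the neuromuscular junction (-0.21), Col17a1 of hemidesmosomes (-0.31) and Col23a1 (-0.36, SE 0.14). Col23a1 passed under library totals alone (-0.43, adjusted p = 0.0429) and after removal of the length trend (-0.50, adjusted p = 0.0221). Col10a1 of growth plate cartilage had 0 or 1 count per library. Col25a1, a transmembrane collagen of developing muscle and neurons, had 12 counts in Control 1 and 0 to 5 in the others, and neither was tested.

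The class make-up of collagen transcripts was compared on the per-length scale, where levels of genes can be set side by side. Fibrillar chains made up 56.0 ± 2.52% of the summed collagen CPM per kilobase in Control and 42.9 ± 3.3% in 1C-MIM (SD, n = 5). Basement membrane chains made up 19.2 ± 1.8% and 26.8 ± 2.15%, and the other chains 24.8 ± 1.0% and 30.3 ± 1.23%. Shares sum to 100%, so a lower fibrillar share raises the rest. The summed CPM of basement membrane chains was 333 ± 40.2 in Control and 297 ± 24.7 in 1C-MIM (SD, n = 5). That of the other chains was 358 ± 50.1 and 296 ± 41.9. For both classes the mean sum was thus lower in 1C-MIM, with overlapping ranges. The fibrillar share ran from 51.6 to 57.6% in Control and from 38.3 to 46.7% in 1C-MIM. In Control the order of levels per kilobase was Col3a1 (56.8), Col1a2 (47.7), Col1a1 (28.9), Col4a1 (24.1), Col6a2 (23.2), Col6a1 (20.9) and Col4a2 (16.4). In 1C-MIM it was Col1a2 (26.9), Col4a1 (20.8), Col3a1 (19.4), Col4a2 (15.5), Col6a1 and Col6a2 (14.6 each) and Col1a1 (13.6).

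**Figure D3:**
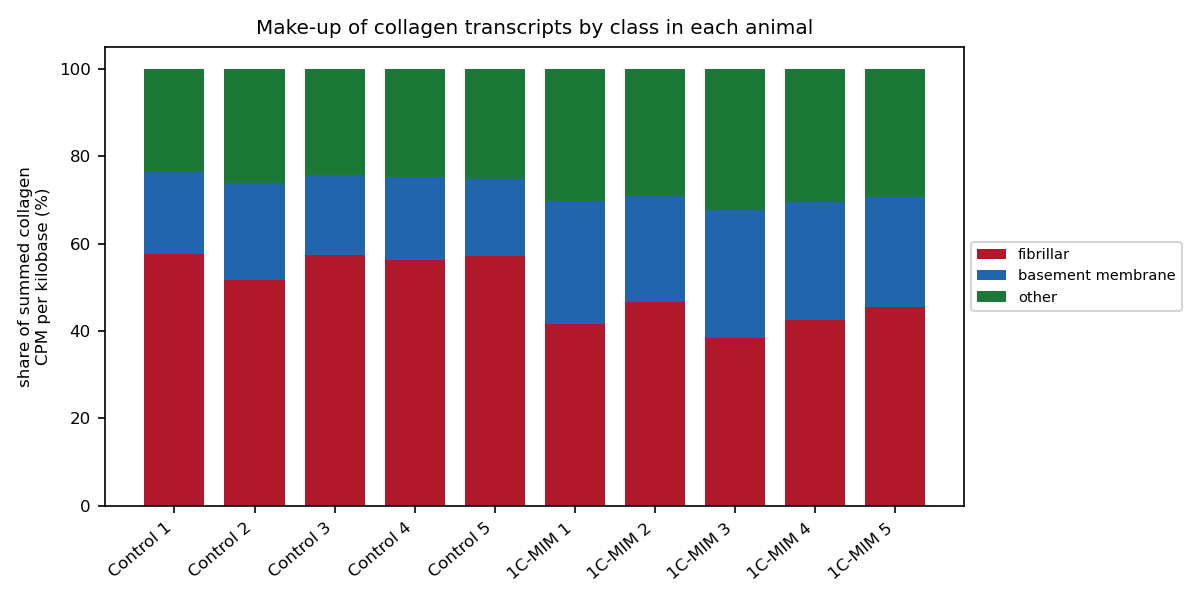
Share of the summed collagen CPM per kilobase (vertical axis, percent) held by fibrillar, basement membrane and other chains in each of the 10 animals. The fibrillar share is 51.6 to 57.6% in the Controls and 38.3 to 46.7% in the 1C-MIM animals.

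Ratios between chains within a library do not depend on how libraries are scaled, so 8 ratios of values per length were compared by an exact permutation test over all assignments of the libraries to groups (two-sided, Benjamini-Hochberg over the 8 ratios). The smallest p such a test can give is 0.0079. Of the 8 ratios, 7 differed between the groups at an adjusted p under 0.05. The ratios were chosen with earlier results of these data known. Those with called chains partly restate differences already seen in the same libraries and are not separate evidence.

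The ratio of Col1a1 to Col4a1, the fibrillar against the basement membrane trimer, was 1.24, 0.919, 1.28, 1.17 and 1.36 in Control 1 to 5. It was 0.515, 0.860, 0.483, 0.618 and 0.744 in 1C-MIM 1 to 5, with every 1C-MIM library below every Control. The log2 ratio was lower by 0.91 in 1C-MIM (log2 difference -0.91, exact permutation p = 0.0079, adjusted p = 0.0159). Col1a1 to Col6a1 behaved alike in direction, with 1.22 to 1.46 in Control and 0.732 to 1.16 in 1C-MIM (log2 difference -0.60, exact permutation p = 0.0079, adjusted p = 0.0159). Col3a1 to Col1a1 went from 1.95 ± 0.184 to 1.48 ± 0.221 (SD, n = 5; log2 difference -0.41, exact permutation p = 0.016, adjusted p = 0.0254), with an overlap through 1C-MIM 1.

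Chains of the same trimer also shifted against each other. Col1a1 to Col1a2 was 0.677, 0.585, 0.597, 0.566 and 0.603 in Control 1 to 5 and 0.479, 0.498, 0.533, 0.515 and 0.505 in 1C-MIM 1 to 5. The groups did not overlap (log2 difference -0.26, exact permutation p = 0.0079, adjusted p = 0.0159). Col4a1 to Col4a2 was 1.42 to 1.52 in Control and 1.28 to 1.36 in 1C-MIM, again without overlap (log2 difference -0.13, exact permutation p = 0.0079, adjusted p = 0.0159). That ratio differed although neither of its chains passed the test by itself.

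For type VI, Col6a1 to Col6a2 went from 0.908 ± 0.0391 to 1.00 ± 0.0665 (SD, n = 5; log2 difference 0.15, exact permutation p = 0.024, adjusted p = 0.0272). Col6a3 to Col6a2 stood at 0.287 ± 0.0248 and 0.324 ± 0.0418 (exact permutation p = 0.16, adjusted p = 0.159). Its log2 difference of 0.17 became -0.06 with the length trend removed, since these transcripts have 10841 and 3729 bases. For type V, Col5a1 to Col5a2 went from 0.897 ± 0.0589 to 1.04 ± 0.096 (log2 difference 0.21, exact permutation p = 0.024, adjusted p = 0.0272), and its adjusted p was 0.118 with the length trend removed. Both the Col6a1 to Col6a2 and the Col5a1 to Col5a2 ratio had an adjusted p of 0.0544 when Control 1, Control 3, Control 4 or Control 5 was left out.

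**Figure D4:**
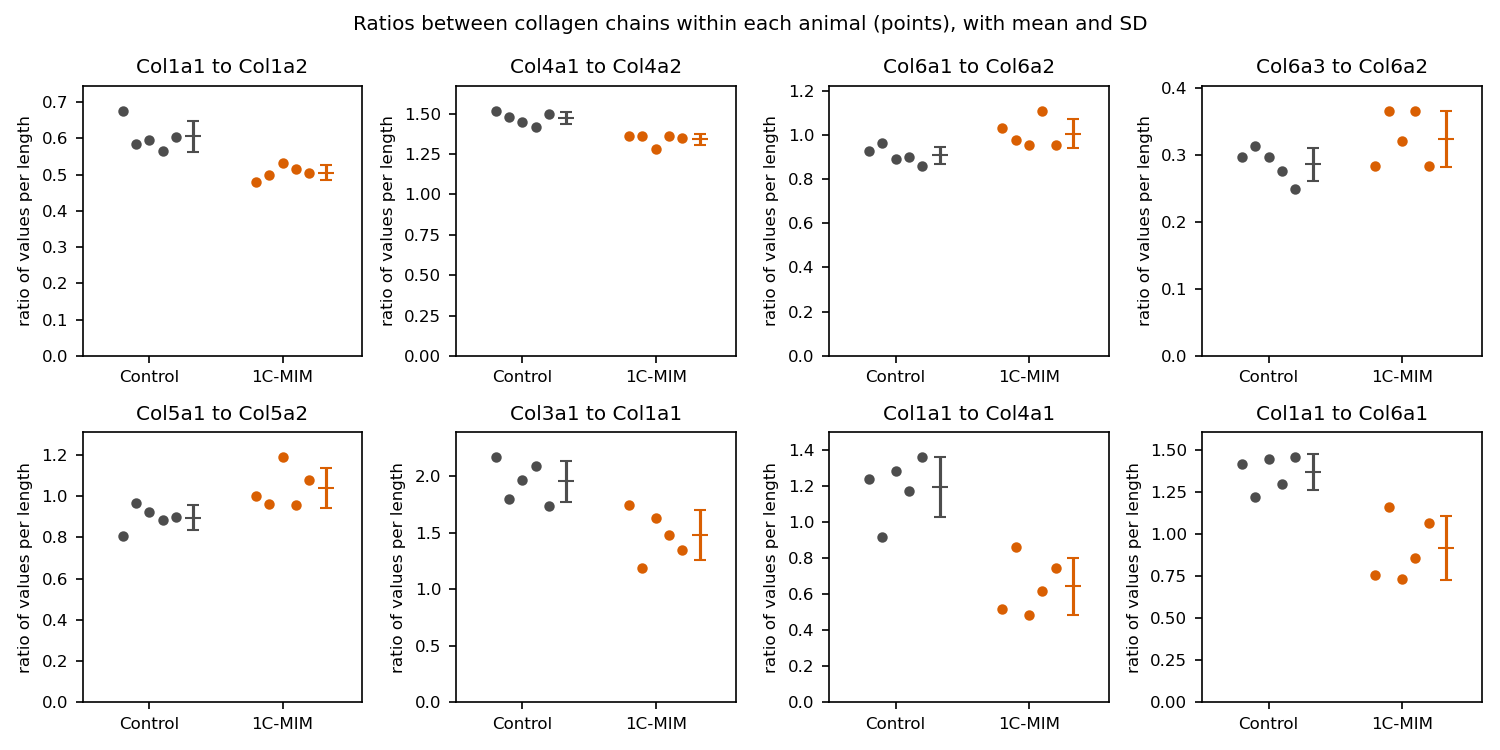
Ratio of values per length between 2 chains in each animal (vertical axes, from 0), with the mean and SD of each group beside the points. The groups are separate for Col1a1 to Col1a2, Col4a1 to Col4a2, Col1a1 to Col4a1 and Col1a1 to Col6a1, and overlap for the other 4 ratios.

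Transcript length bears on these values, because fold changes in this comparison rose with length. Tested collagen chains had a median transcript of 6086 bases, against 2817 over all genes tested, and 12 and 18 of the 39 lay in the ranges named next. Among all genes of 4659 to 6128 bases, 4.25% were lower and 19.4% higher, with a median log2 fold change of 0.14. From 6131 bases on, 1.87% were lower and 28.8% higher, with a median of 0.24. The lower chains Col3a1 (5564 bases), Col1a2 (5143), Col1a1 (4698), Col5a2 (6615) and Col5a1 (8402) lay in these ranges. With the trend removed their log2 fold changes were -1.70, -0.96, -1.205, -1.115 and -0.96, and the 5 kept their calls. Of the 5 higher chains, Col9a1 and Col28a1 kept theirs.

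**Figure D5:**
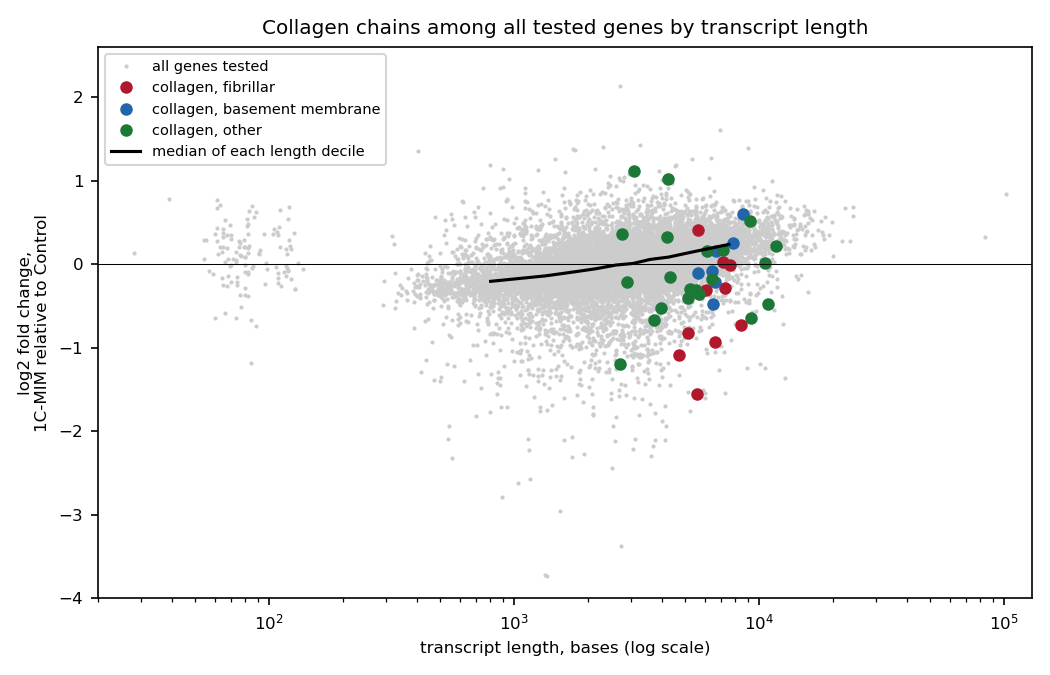
Log2 fold change (vertical axis) against transcript length in bases (horizontal axis, log scale) for all 13880 genes tested (grey) and the collagen chains by class, with the median of each length decile as a line. The line rises from -0.21 to 0.24, and the fibrillar chains called lower lie below it.

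Genes for folding and processing collagen that passed the test were all lower. Of 18 tested folding and hydroxylation genes 7 were lower and 11 did not pass (median log2 change -0.19). Serpinh1, the chaperone HSP47 that binds procollagen, fell by 0.85 on the log2 scale (SE 0.14, edgeR adjusted p = 0.00276), from 88.9 ± 21.9 to 49.3 ± 2.96 CPM (SD, n = 5). Ppib, a prolyl isomerase of the procollagen complex, fell by 0.52 (SE 0.09). Among 12 processing and crosslinking genes 5 were lower and 7 did not pass (median -0.27). Pcolce, an enhancer of propeptide removal, fell by 0.59 (SE 0.10), and the crosslinking enzyme Loxl1 by 0.52 (SE 0.10). The background share was 11.8% lower. After removal of the length trend, 6 folding and 7 processing genes were lower, against a share of 9.31%.

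Of 8 tested collagen receptors 0 were higher, 1 was lower and 7 did not pass (median 0.01), near the background share of 11.8% lower. Lair1, an inhibitory receptor of leukocytes, fell by 0.73 (SE 0.22), while the integrin chain Itga1 did not pass (log2 fold change 0.60, SE 0.23, edgeR adjusted p = 0.0819). Of 5 tested degradation genes 3 were lower and 2 did not pass (median -0.63), with the protease Ctsk at -0.92 (SE 0.18) and the membrane metalloproteinase Mmp14 at -0.63 (SE 0.11). Of 10 partners of type IV collagen in the basement membrane 3 were higher and 7 did not pass (median 0.17). The laminin chains Lama5 and Lamb2 rose by 0.57 (SE 0.13) and 0.31 (SE 0.07). The background share was 9.78% higher over all genes and 28.8% in the longest length range, and the median transcript of these partners had 6712.5 bases. With the length trend removed none of the 10 passed at an adjusted p under 0.05, and their median was -0.09 (Lama5 0.25, edgeR adjusted p = 0.0632).

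Markers of the cells that can make collagen moved as follows, against background shares of 11.8% lower and 9.78% higher over all genes. Of 10 markers of those progenitors (fibro-adipogenic), 4 were lower (Lum, Ly6a, Mfap5 and Dpt) and 6 did not pass (median log2 change -0.24). Of the 6, Pdgfra had 31.3 ± 5.64 and 31.9 ± 5.09 CPM, and Dcn 418 ± 42.8 and 440 ± 84.7 CPM (SD, n = 5). The log2 changes of Pdgfra, Dcn and Dpp4 were 0.03, 0.07 and 0.19. Those of Gsn, Cd34 and Pi16 were -0.11, -0.205 and -0.27. The 10 markers summed to 2126 to 2789 CPM in Control and 1828 to 2635 CPM in 1C-MIM. Gsn alone had means of 1670 and 1550 CPM in these groups, so the sums mostly reflect Gsn. None of the 6 tendon markers passed the test at an adjusted p under 0.05, and their sum was 184 to 273 CPM in Control and 95.2 to 306 CPM in 1C-MIM. The endothelial markers were higher in 5 of 6 cases, with 164 to 232 CPM in Control and 236 to 280 CPM in 1C-MIM. Of 6 smooth muscle and pericyte markers 1 was higher and 5 did not pass (281.2 to 329.8 CPM in Control and 302 to 422 CPM in 1C-MIM). Of 6 macrophage markers 4 were lower and 2 did not pass (107 to 211 CPM in Control and 70.5 to 116 CPM in 1C-MIM). Of 5 tested satellite cell markers 2 were lower and 3 did not pass, and of the 8 fibre markers 3 were higher and 5 did not pass. The length trend was not removed for these marker counts, and 28.8% of genes in the longest length range were higher. The part of these cell types in the collagen results was not tested.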

How the data were processed

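RNA from quadriceps was sequenced in 10 libraries, grouped by their titles. Per the file headers, each deposited table gives 33984 RefSeq transcripts with a count, FPKM and TPM value. The deposited count values are whole numbers and were not normalized by the authors. The deposited FPKM values, scaled by the authors to transcript length and depth, gave the transcript lengths and nothing else. No result uses the TPM values that the authors deposited. Tools named in the submitters' processing notes, without role or order, are bedtools 2.30.0, DESeq2 1.28.0, featureCounts, Picard 2.27.4, Salmon 1.5.2, SAMtools 1.15.1, STAR, StringTie 2.2.1, Subread 2.0.1 and Trim Galore 0.6.7, with the build GRCm39. The sources used here give neither filters nor strandedness.

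Each symbol was represented by its transcript with the most counts over all libraries. Genes were filtered with filterByExpr, scaled with TMM and tested with edgeR 4.0.16 in R 4.3.3 (quasi-likelihood, robust dispersion), adjusting by Benjamini-Hochberg over the 13880 genes tested. The standard error is the size of the log2 fold change over the root of the F statistic. Totals of 28521254 to 31771296 counts per library bound the counting precision. Ratios between chains were tested by exact permutation. Members, classes, lists, ratios and alternatives were chosen with earlier results of these data known. Promoter windows come from RefSeq on GRCm38.p6, another build than the submitters', so no further coordinates are given.

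Alternatives changed the scaling (size factors of DESeq2, upper quartile, library totals), the filter (none, or 1 CPM in 5 libraries), the tool (DESeq2 1.42.0, limma-voom with limma 3.58.1, edgeR without robust dispersion), the block (replicate number, animal number series), the transcripts (summed per symbol) and the threshold (adjusted p under 0.1, or a fold of 1.5 or more as well). One more took out each library's trend with transcript length, as offsets from a natural spline with 3 inner knots. Libraries were left out singly, and Control 1 and Control 5 together. Such fits hold fewer animals, so a call can be lost through lower power alone. Whether a lost call came from that or from the animals left out was not tested. Every chain with at least 1 count was accounted for, and per-library values are given for chains with a mean of at least 1 CPM that were called or entered a ratio. Col9a1, Col26a1 and Col28a1, with means under 1 CPM, and Col7a1 were added after their values were seen. In each pathway list the 2 members with the smallest p among those of at least 1 CPM were named.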

Additional observations from a re-analysis of the deposited data

Results flagged for a closer look

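In 5 of 50 groups of 5 libraries 1 library stood far from the others (gap over range above Dixon's 95% critical value of 0.71), where chance flags about 1 in 20 groups. Col11a2 was 9.53 CPM in Control 5 and 7.91 to 8.32 CPM in the other Controls. Col20a1 was 7.47 CPM in 1C-MIM 3 and 6.11 to 6.44 CPM in the other 1C-MIM libraries. Col28a1 was 1.51 CPM in 1C-MIM 2 against 0.691 to 0.893 CPM, and Col4a5 was 7.07 CPM in the same library against 4.42 to 4.84 CPM. The ratio of Col4a1 to Col4a2 was 1.28 in 1C-MIM 3 and 1.35 to 1.36 in the other 1C-MIM libraries.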

How the results depend on the processing

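Of the 15 called chains, 0 changed direction in the 23 alternative fits, and 7 kept their call in all of these that tested them (Col3a1, Col5a1, Col5a2, Col6a1, Col6a2, Col26a1 and Col9a1). Of the 7, Col6a1 fell short of a fold change of 1.5. With the length trend removed, 17 chains were lower and 2 higher, among them 4 basement membrane and 7 other chains lower. At an adjusted p under 0.1, 16 chains were lower, of which 3 were basement membrane and 7 other chains. Col7a1 (edgeR adjusted p = 0.0529) joined the higher chains at that threshold. The share of all genes called there is not given here, so these counts have no background beside them. Requiring a fold change of at least 1.5 left 730 genes, with 3 chains higher, 0 basement membrane chains lower and 2 other chains lower. With library totals alone 3 chains were higher and 3 basement membrane chains lower. Without Control 1 and Control 5, 1808 genes were called, with 3 chains higher and 3 fibrillar chains lower. With no filter, and with the replicate block, 0 basement membrane chains were lower. Leaving out each library in turn gave 7 to 13 chains lower and 2 to 6 higher, 4 to 6 fibrillar, 0 to 2 basement membrane and 3 to 5 other chains lower, and 1680 to 3443 genes called, against 2999 with all libraries. The cause of these shifts was not tested.

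Same-numbered libraries of the groups do not share an animal, so the numbers were not taken as pairs. The correlation of their deviations from the group means ran from -0.075 to 0.387, positive for numbers 2 to 5 and negative for number 1. The means with other numbers ran from -0.107 to 0.02. Deviations from a group's own mean cancel within the group, which pulls these means to the opposite sign. The comparison therefore cannot decide whether the numbers mark pairs. With the replicate block 7 chains were lower and 6 higher. The share of all genes called with that block is not given here, so these 2 counts cannot be set against a background. The exact sign-flip permutation test over the 5 same-numbered pairs, used as a replicate block for the ratios, cannot go below p = 0.0625, so no ratio could pass. Its log2 differences are those of the unpaired test (-0.26 for Col1a1 to Col1a2, -0.13 for Col4a1 to Col4a2, 0.15 for Col6a1 to Col6a2, 0.21 for Col5a1 to Col5a2, -0.41 for Col3a1 to Col1a1, -0.91 for Col1a1 to Col4a1 and -0.60 for Col1a1 to Col6a1). Without Control 1 and Control 5 these were, in the same order, -0.20, -0.11, 0.13, 0.16, -0.41, -0.82 and -0.55, with adjusted p of 0.0571 or 0.143 from exact permutation. Col5a1 to Col5a2 was 0.16 with the length trend removed, and Col6a3 to Col6a2 turned to -0.063. Leaving out each library gave 0.11 to 0.17 for Col6a1 to Col6a2 and 0.16 to 0.24 for Col5a1 to Col5a2.

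Chains that were not called and lay near 0 changed sign. With the length trend removed Col12a1 was -0.12, Col19a1 -0.25, Col22a1 -0.005, Col24a1 -0.18, Col4a6 -0.009 and Col6a6 -0.025. With library totals Col19a1 was -0.057 and Col24a1 -0.048. Col27a1 was 0.001 with no filter and with DESeq2, and 0.0 with the replicate block. Leaving out each library in turn gave log2 fold changes of -0.197 to 0.395 for Col12a1, -0.531 to 0.272 for Col17a1, -0.127 to 0.311 for Col19a1, -0.102 to 0.096 for Col24a1, -0.074 to 0.086 for Col27a1 and -0.353 to 0.084 for Col8a2.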
